A study of Mus musculus with 6 samples.

Results

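Lyn and its relatives among the Src-family tyrosine kinases were examined in astrocytes of the mouse neocortex, together with Csk, the kinase that restrains them. The members were taken by gene symbol from the table that the authors deposited, in which 8 of 43383 rows carry the symbols Lyn, Src, Fyn, Yes1, Lck, Fgr, Blk and Csk. The family was chosen by the measured upper/deep contrast of Lyn, and the other 7 genes were added for their relation to it. The differences between layers given below for these 8 genes are therefore a description and carry no test.

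The cells were GFP-positive astrocytes sorted from the somatosensory cortex of 4-week-old male mice that carry the Aldh1l1-eGFP transgene and no other stated allele or treatment. In these mice GFP follows the Aldh1l1 promoter, so that the sort defines an astrocyte by the activity of that promoter. Upper-layer astrocytes (ULAs) came from layers II to IV and deep-layer astrocytes (DLAs) from layers V and VI of the same 3 brains, with layer I, the meninges, the corpus callosum and the layer IV/V border cut away. Each layer is represented by 3 libraries, 1 from each brain. Levels are given as reads scaled to mRNA length and to the mapped total of the library (RPKM), a scale on which genes of different length can be compared.

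Src-family kinases sit on the inner face of the plasma membrane, held there by lipid attached to their first residues, and pass signals from integrins, growth factor receptors and immune receptors to adaptor proteins and the cytoskeleton. They are kept inactive when a tyrosine near the end of the protein is phosphorylated by Csk and folds back onto the kinase's own SH2 domain. Phosphatases such as the receptor phosphatase encoded by Ptpra remove that phosphate. Src, Fyn and Yes1 are found in most cell types, whereas Lyn, Lck, Fgr and Blk are best known from blood cells, Lyn and Blk from B cells and Lck from T cells. In brain, Fyn acts in myelinating cells and, with Src, phosphorylates Dab1 downstream of Reelin.

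The ends of the coding sequences show the features by which these kinases differ, and are shown to set the members apart by their regulatory tail. The last 10 codons before the stop are written 5′ to 3′, from the GENCODE M21 transcripts on GRCm38, with the codon of the last tyrosine in capitals.
Lyn: gccacagaagggcagTATcagcagcaaccg
Lck: gccacagagggccagTACcagccccagcct
Blk: gccacggagggccaaTATgagctgcagccc
Src: gagccacagTACcagcccggggagaaccta
Fyn: gagccccagTATcagcccggtgaaaacctg
Yes1: gagccacagTACcaaccaggagaaaattta
Fgr: gaaccacagTACcagcctggagaccagaca
Csk: gagcacatcaagacccatgagctgcacctg
In Lyn, Lck and Blk 4 codons follow the tyrosine, and in Src, Fyn, Yes1 and Fgr 6 codons follow it. Csk has no tyrosine codon among its last 12 codons. The members differ at the other end as well, where a cysteine at codon 3 (capitals) can take a second lipid. The first 10 codons of Lyn, Fyn and Src are shown for that contrast.
Lyn: atgggaTGTattaaatcaaaaaggaaagac
Fyn: atgggcTGTgtgcaatgtaaggataaagaa
Src: atgggcagcaacaagagcaagcccaaggac
Lyn, Fyn, Yes1, Lck and Fgr have the cysteine codon and Src and Blk do not. All 7 kinases have glycine at codon 2, which Csk lacks.

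For 5 of the 8 genes the RPKM averaged over all 6 libraries reached 1, the limit set for the fit across all rows, and these were Fyn, Lyn, Src, Yes1 and Csk. Lck and Fgr lay below it, and Blk was listed at 0 in every library. In ULAs the order of the mean levels per length was Fyn, Lyn, Src, Yes1, Csk, Lck and Fgr, and in DLAs it was Fyn, Src, Lyn, Yes1, Csk, Lck and Fgr. In ULAs the ranges of Fyn and Lyn overlapped, and Lyn was the higher of the pair in the ULAs of brains 1 and 2. The ranges of Lck and Fgr also overlapped in ULAs. Every other pair of neighbours in these orders was separate over the 3 libraries of its layer, although Src and Lyn were only just so in DLAs. An exact paired permutation test over 3 brains has a smallest 2-sided p of 0.25, so the order of single genes was not tested.

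For the ULAs of brains 1, 2 and 3, Lyn had 31.82, 27.87 and 23.67 RPKM, and in their DLAs 11.02, 11.44 and 11.18 RPKM. Its lowest ULA value lay well above its highest DLA value. The DLA values were almost the same in the 3 brains, and the ULA values were spread more widely. The mean was 27.8 ± 4.08 RPKM (SD, n = 3) in ULAs and 11.2 ± 0.212 RPKM in DLAs. The upper/deep ratio was 2.89, 2.44 and 2.12 in brains 1, 2 and 3, with a mean of 2.48 ± 0.387. Each ULA value of Lyn rests on 2184 to 2689 reads and each DLA value on 777 to 1142, as reconstructed from the steps of the RPKM values, so counting error is small beside the differences. On the log2(RPKM + 1) scale the fitted ULA minus DLA difference was 1.23 (SE 0.12), which placed Lyn at position 12 from the top among all 13999 tested rows. Among the 9185 rows with a mean over 5 RPKM in their higher layer it was at position 8. Lyn was chosen by this contrast, so nothing is read from either position.

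**Figure D1:**
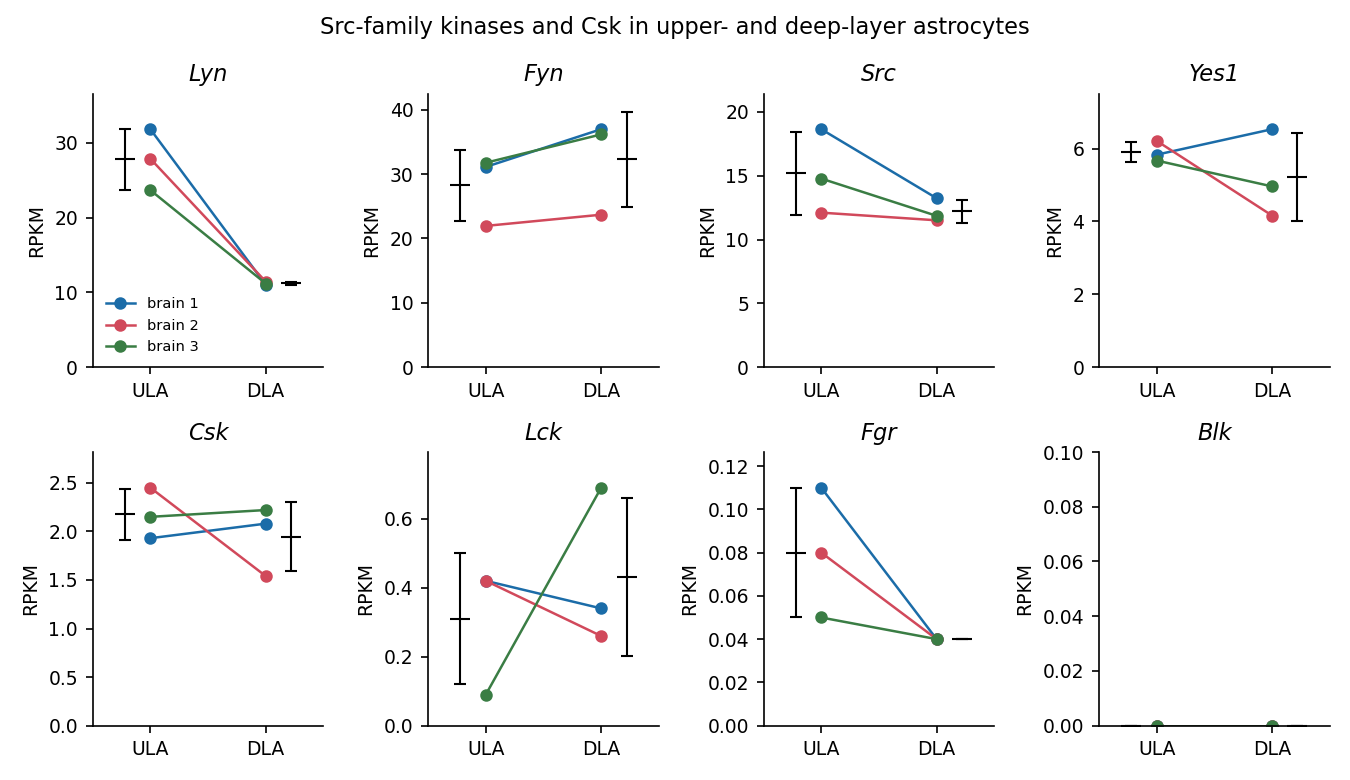
RPKM of each member in ULAs and DLAs, with points for the 6 libraries, lines joining the layers of a brain, and bars for the mean ± SD of 3 libraries beside them (each vertical axis starts at 0 and has its own range). Lyn lies between 23.67 and 31.82 RPKM in ULAs and between 11.02 and 11.44 RPKM in DLAs, Fyn is slightly higher in DLAs in each brain, and the direction differs between brains for Yes1, Csk and Lck. The Lck points of brains 1 and 2 coincide in ULAs, and Blk is listed at 0.

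Lyn lies on the plus strand of chromosome 4 from 3605268 to 3718759 (mm9, the build named in the submitters' processing notes) and has 13 exons. Its row has an mRNA length of 3456 bases and joins 2 RefSeq mRNAs, which encode proteins of 491 and 512 codons, known as the B and A forms of the kinase. The forms differ by an insert near the start of the protein, and a joint row cannot tell them apart. A row on the opposite strand, ENSMUSG00000091559, shares 244 exonic bases with Lyn and averaged 1.76 RPKM. The counting is not stated to use strand, so reads from these bases cannot be assigned to either row.

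Fyn, the most abundant member in both layers by its mean, gave ULA levels of 31.10, 21.94 and 31.75 RPKM for brains 1, 2 and 3 and DLA levels of 36.96, 23.68 and 36.15 RPKM. It was higher in DLAs in each of the 3 brains, yet the layers overlapped, since both libraries of brain 2 were low. The upper/deep ratio was 0.841, 0.927 and 0.878, with a mean of 0.882 ± 0.0427 (SD, n = 3). Averaged over both layers, Fyn was at 22.8 RPKM in brain 2 and at 34.0 RPKM in brains 1 and 3, so that brains differed by a factor of 1.49. The fitted ULA minus DLA difference in log2(RPKM + 1) was −0.18 (SE 0.10). Its row (mm9 chromosome 10, 39089605 to 39285180, plus strand, 15 exons) joins 3 RefSeq mRNAs of 534 or 537 codons. The brain and T cell forms of Fyn differ by an alternative kinase-domain exon and were not separated here.

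Src, the founding member of the family, had ULA levels of 18.65, 12.11 and 14.78 RPKM and DLA levels of 13.24, 11.51 and 11.86 RPKM for brains 1, 2 and 3. In all 3 brains the ULA level was the higher one, but the layers overlapped because the ULA value of brain 2 was below the DLA value of brain 1. The ratio was 1.41, 1.05 and 1.25, with a mean of 1.24 ± 0.178 (SD, n = 3), and the fitted difference in log2(RPKM + 1) was 0.28 (SE 0.12). The ratio of Lyn to Src was 1.71, 2.30 and 1.60 for the ULAs and 0.832, 0.994 and 0.943 for the DLAs. Lyn was thus clearly the higher in each ULA library, whereas the DLA levels were closer. In the DLAs of brain 2 Lyn and Src, at 11.44 and 11.51 RPKM from 777 and 879 reads, were too close to be ordered. The Src row (chromosome 2, 157250029 to 157297574, plus strand, 15 exons) joins mRNAs of 535 and 541 codons.

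Yes1, a close relative of Src with broad expression (chromosome 5, 32913544 to 32989439, plus strand), was at 5.83, 6.21 and 5.67 RPKM in ULAs and at 6.53, 4.16 and 4.96 RPKM in DLAs. The direction was not shared by the brains, with a higher value in DLAs in brain 1 and in ULAs in brains 2 and 3. The mean was 5.90 ± 0.277 RPKM (SD, n = 3) in ULAs and 5.22 ± 1.21 RPKM in DLAs, and the fitted log2 difference of 0.17 (SE 0.15) was about the size of its error. A row on the opposite strand, listed as 100038480, shares 635 of the exonic bases of Yes1 but averaged only 0.268 RPKM.

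Csk, which phosphorylates the tail of the kinases above, lies on chromosome 9 (57474453 to 57492987, minus strand) and was at 1.93, 2.45 and 2.15 RPKM in ULAs and at 2.08, 1.54 and 2.22 RPKM in DLAs. It was higher in DLAs in brains 1 and 3 and higher in ULAs in brain 2, and the layers overlapped. Its mean was 2.18 ± 0.261 RPKM (SD, n = 3) in ULAs and 1.95 ± 0.359 RPKM in DLAs, with a fitted log2 difference of 0.11 (SE 0.16). The mRNA of Lyn exceeded that of Csk 16.5, 11.4 and 11.0 times in the ULAs of brains 1, 2 and 3 and 5.30, 7.43 and 5.04 times in the DLAs. For the 7 kinases summed, the same ratio was 45.6 and 35.4 for the ULAs of brains 1 and 3, above the 29.2 to 33.2 of the DLAs, whereas that of brain 2 was below them.

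Apart from Lyn, the kinases best known from blood cells (Lck, Fgr and Blk) were at low levels or not detected. Lck was at 0.42, 0.42 and 0.09 RPKM in ULAs and at 0.34, 0.26 and 0.69 RPKM in DLAs, which corresponds to 6 to 25 and 12 to 47 reads per library. Brain 3 had both the lowest and the highest value of Lck. Fgr was at 0.11, 0.08 and 0.05 RPKM in ULAs and at 0.04 RPKM in each DLA library. Its ULA values were the higher ones but rest on 4 to 9 reads, against 3 to 4 reads in DLAs, so no ratio is given. Blk was listed at 0 in all 6 libraries.

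In the fit across all rows, which tested 13999 rows with limma, 1.63% of the rows had an adjusted p-value under 0.05. Rows with the higher level in ULAs made up 0.714% of all those tested and rows with the higher level in DLAs 0.914% (100 and 128 rows). After quantile normalization the balance turned, to 138 and 103 rows. Other settings moved the counts further, to 23 and 18 without the brain term, 0 and 0 with no filter on low RPKM, and 426 and 687 without brain 3. Of the 5 members that entered the main fit, 1 was called, Lyn. Since this contrast is the basis on which Lyn was picked, nothing is read from that count. The median ULA minus DLA difference over all tested rows was −0.03 on the log2(RPKM + 1) scale, with a 5th to 95th percentile of −0.38 to 0.34, and Src, Fyn, Yes1 and Csk lay inside that range.

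**Figure D2:**
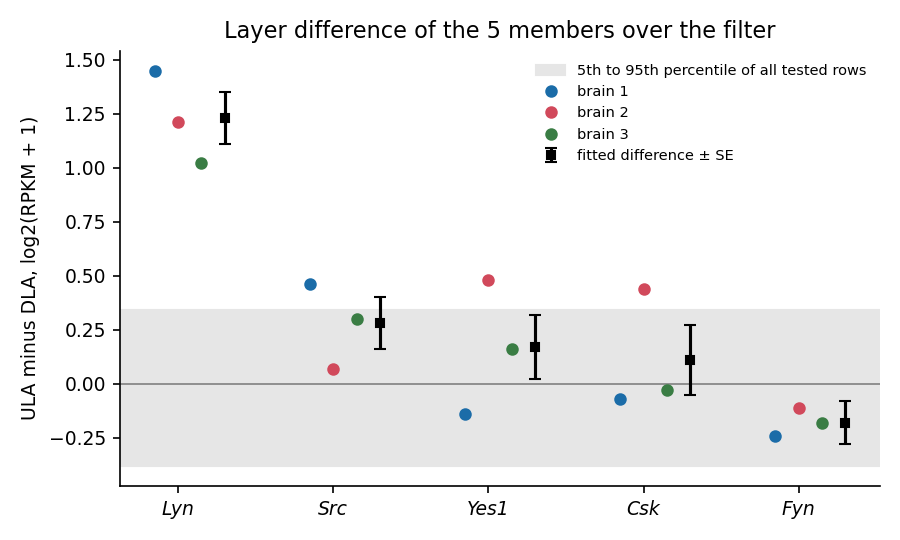
ULA minus DLA difference in log2(RPKM + 1) for the 5 members in the fit, with coloured points for the 3 brains, black squares for the fitted difference ± SE, and a grey band from the 5th to the 95th percentile of all 13999 tested rows (−0.38 to 0.34). The 3 points of Lyn, up to 1.45, lie above the band, and the fitted differences of the other 4 members, from −0.18 to 0.28, lie within it.

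The share of each kinase in the family describes the same values in another way, and the choice of Lyn by its contrast bears on all of these shares. Lyn accounted for 36.2%, 40.6% and 31.1% of the summed RPKM of the 7 kinases in the ULAs of brains 1, 2 and 3, and for 16.2%, 22.4% and 17.2% in the DLAs. The share of Fyn was 35.4%, 32.0% and 41.8% in ULAs and 54.2%, 46.3% and 55.7% in DLAs. Src took 17.6% to 21.2% in ULAs and 18.3% to 22.5% in DLAs. The sum itself was 87.9, 68.6 and 76.0 RPKM in ULAs against 68.1, 51.1 and 64.9 RPKM in DLAs. Without Lyn it was 56.1, 40.8 and 52.3 RPKM in ULAs against 57.1, 39.6 and 53.7 RPKM in DLAs, with no direction shared by the 3 brains.

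**Figure D3:**
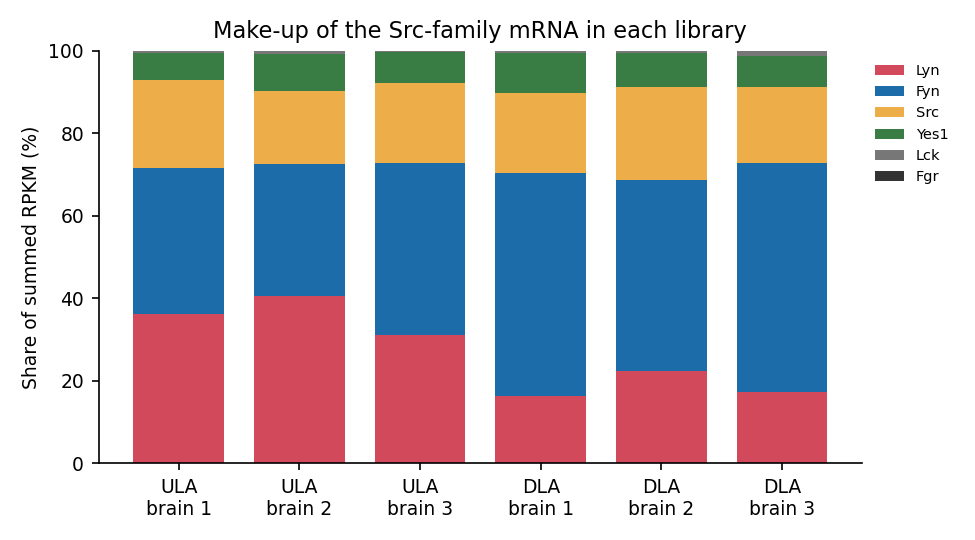
Share of each Src-family kinase in the summed RPKM of the 7 kinases, in percent, for each of the 6 libraries (Blk is listed at 0 and does not appear). Lyn makes up 31.1% to 40.6% of the sum in ULAs and 16.2% to 22.4% in DLAs, and Fyn 32.0% to 41.8% and 46.3% to 55.7%.

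Markers of other cell types were set beside these levels, because Lyn and Fyn are also made by cells that a sort can carry along. In bulk samples such as these, fewer cells of a type and less RNA per cell cannot be told apart. Of 11 microglial markers, 10 were at 0 to 1.07 RPKM in every library, among them Cx3cr1, Tmem119, Csf1r and Itgam, and their summed level was 3.59 to 4.04 RPKM in ULAs and 2.32 to 3.99 RPKM in DLAs. P2ry12, a purinergic receptor, was higher, at 11.63 to 12.60 RPKM in ULAs and 7.76 to 10.22 RPKM in DLAs. The sum of all 11 was 15.6 to 16.6 RPKM in ULAs and 10.1 to 14.2 RPKM in DLAs. P2ry12 and this sum thus had all ULA values above all DLA values, as did Lyn and 6.59% of the tested rows. P2ry12 makes up most of the sum, and the other 10 markers overlapped between the layers. The part of microglia in the Lyn difference was not tested. The 7 lymphocyte markers together reached at most 0.12 RPKM, and 2 of them, Cd79b and Ms4a1, were listed at 0 throughout. Ptprc, the leukocyte phosphatase, was at 0.01 RPKM or less in every library.

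The 6 oligodendrocyte markers had a higher sum in the DLAs of each brain. In brains 1, 2 and 3 they summed to 19.1, 14.7 and 35.8 RPKM in ULAs against 51.2, 60.4 and 70.3 RPKM in DLAs. The layers did not overlap, and 9.27% of the single tested rows likewise had all DLA values above all ULA values. The library of brain 3 was the highest of the ULA libraries in this respect, with Mog, a protein of the myelin surface, at 8.37 RPKM against 1.43 and 1.48 RPKM. Fyn was likewise higher in DLAs in 3 of 3 brains, and its lowest values were in brain 2, whose marker sum was the lowest in ULAs but not in DLAs. The part of these cells in the Fyn difference was not tested. The ULA value of Lyn was lowest in brain 3, but its highest was in brain 1 and not in brain 2. Its fitted log2 difference was 1.12, 1.23 and 1.33 without brain 1, 2 and 3. Whether oligodendrocytes have a part in the Lyn difference was not tested. The astrocyte markers Aldh1l1 and Sox9 were at 203.27 RPKM or more and 98.70 RPKM or more in every library, and endothelial, oligodendrocyte precursor and neuronal markers summed to at most 1.6, 0.99 and 6.85 RPKM.

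**Figure D4:**
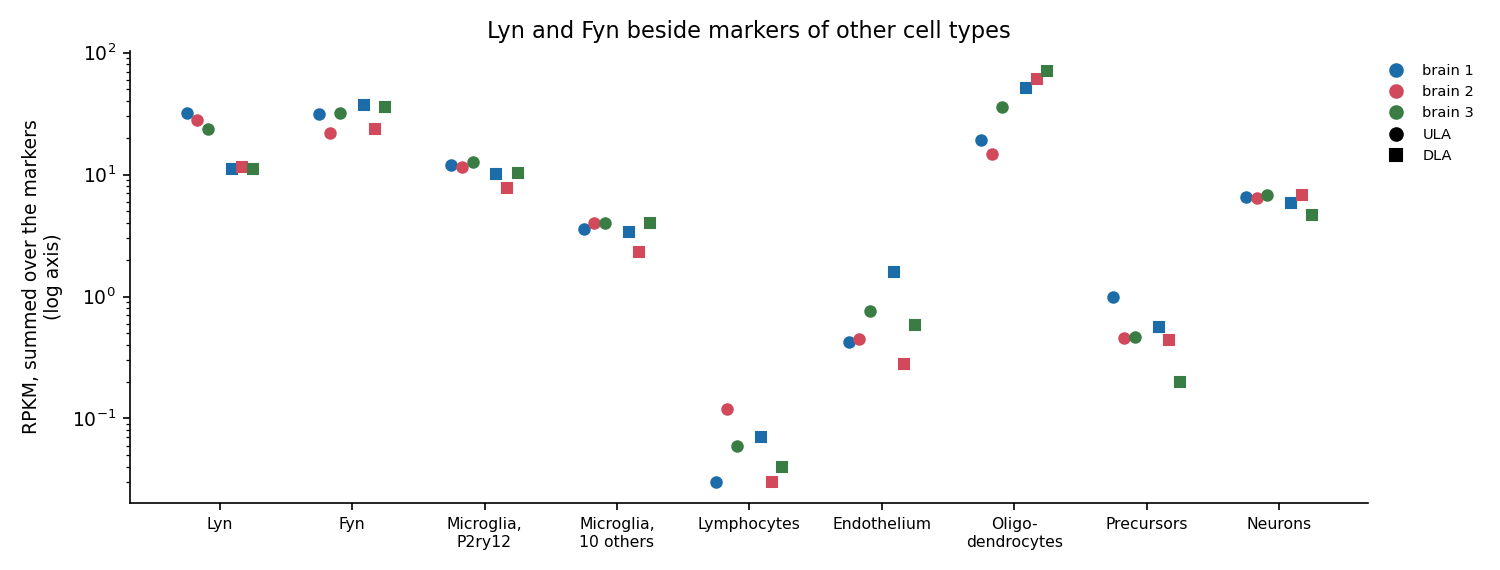
RPKM of Lyn and Fyn and summed RPKM of marker genes of other cell types in each library, on a log axis, with circles for ULAs, squares for DLAs and a colour for each brain. P2ry12 lies at 11.63 to 12.60 RPKM in ULAs and 7.76 to 10.22 RPKM in DLAs, the other 10 microglial markers sum to 2.32 to 4.04 RPKM and the lymphocyte markers to 0.03 to 0.12 RPKM, and the oligodendrocyte sum is higher in DLAs (51.2 to 70.3 RPKM) than in ULAs (14.7 to 35.8 RPKM).

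The genes that surround these kinases were taken from lists of regulators, receptors, substrates and other kinases. Their 98 genes were all found in the table, 60 of them entered the fit, and 2 passed the limma test with p-values adjusted over all 13999 rows. Stat3 was higher in ULAs and Cav1 was higher in DLAs. With no adjustment (p under 0.05), 10 of the 60 had the higher level in ULAs and 4 in DLAs, beside 2295 of all 13999 tested rows (16.4%) in either direction, so nothing particular to the lists is read from that count. The median log2 difference of the 60 genes was 0.05, against −0.03 for all tested rows.

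Stat3, a transcription factor activated by tyrosine phosphorylation from Jak and Src kinases, was at 22.01, 20.86 and 20.80 RPKM in ULAs and at 15.58, 15.02 and 12.63 RPKM in DLAs. All ULA values lay above all DLA values, as in 6.59% of the tested rows. The ULA minus DLA difference in log2(RPKM + 1) was 0.53 (SE 0.11, adjusted p = 0.0492, limma). The call was at the threshold and was lost without brain 1 (adjusted p = 0.177) and without brain 2 (adjusted p = 0.052) in the same limma fit. It held in 3 of 11 alternative settings, over which the adjusted p ranged from 0.0273 to 0.339.

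Cav1 encodes caveolin 1, a membrane scaffold named as a Src substrate, and is abundant in vascular cells. It was at 0.63, 1.02 and 1.86 RPKM in ULAs and at 2.55, 2.77 and 5.14 RPKM in DLAs, higher in DLAs in 3 of 3 brains. All DLA values lay above all ULA values, as in 9.27% of the tested rows. The log2 difference was −1.04 (SE 0.15, adjusted p = 0.00814, limma), and it passed in 8 of the 10 alternative settings in which it was tested, the exceptions being the model without the brain (adjusted p = 0.259) and the fit with no filter on low RPKM (adjusted p = 0.332). The 6 endothelial markers summed to 0.42 to 0.76 RPKM in ULAs and 0.28 to 1.6 RPKM in DLAs, so their layers overlapped. The oligodendrocyte sum was, like Cav1, higher in DLAs without overlap and highest in brain 3 in both layers. The part of either cell type in the Cav1 difference was not tested.

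Among the regulators, 0 of 7 tested genes that restrain the kinases passed the limma test, and their median log2 difference was 0.29. The most abundant were Ptpn12, a phosphatase of the adaptor Bcar1, at 21.9 ± 3.83 RPKM (SD, n = 3) in ULAs and 18.2 ± 5.67 RPKM in DLAs, and Pag1, the membrane adaptor that recruits Csk, at 8.02 ± 1.47 and 6.18 ± 0.622 RPKM. Their log2 differences were 0.29 (adjusted p = 0.269, limma) and 0.32 (adjusted p = 0.335). Cblb, a ubiquitin ligase singled out after its value was seen, had the largest fitted difference among the 7 tested genes of the list. It was at 7.55 ± 0.956 against 4.68 ± 1.37 RPKM, a log2 difference of 0.61 (SE 0.13, adjusted p = 0.0579, limma). It was higher in ULAs in 3 of 3 brains, and leaving out brain 1, 2 or 3 gave an adjusted p of 0.195, 0.125 or 0.00758.

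Of the phosphatases listed as activating the kinases, 0 of 3 tested genes (Ptpra, Ptpn1 and Ptpn11) passed, with a median log2 difference of −0.10. Ptpra was by far the highest of these and varied between brains, with 64.89, 33.89 and 60.61 RPKM for the ULAs and 85.49, 32.54 and 73.51 RPKM for the DLAs of brains 1, 2 and 3. Brain 2 was the lowest for Ptpra in both layers, as it was for Fyn. The log2 difference of Ptpra was −0.20 (SE 0.11, adjusted p = 0.406, limma). Ptpn1, a phosphatase of the endoplasmic reticulum, was at 10.9 ± 0.624 RPKM (SD, n = 3) in ULAs and 11.8 ± 1.14 RPKM in DLAs (adjusted p = 0.724, limma).

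Receptors and surface partners gave 0 of 14 tested genes past the limma threshold and a median log2 difference of 0.20. The most abundant were Ncam1, a neural cell adhesion molecule that signals through Fyn, at 161.0 ± 11.3 RPKM (SD, n = 3) in ULAs and 139.8 ± 6.81 RPKM in DLAs, and Sirpa, an inhibitory surface receptor, at 106.3 ± 11.7 and 97.0 ± 8.57 RPKM. Both were higher in ULAs in 3 of 3 brains, with log2 differences of 0.20 (adjusted p = 0.31, limma) and 0.13 (adjusted p = 0.529). Vldlr, a Reelin receptor singled out after its value was seen, was at 6.23, 6.06 and 5.38 RPKM in ULAs and at 3.37, 3.48 and 3.83 RPKM in DLAs. Its log2 difference was 0.59 (SE 0.14, adjusted p = 0.0695, limma), and the adjusted p was 0.432, 0.128 or 0.0108 without brain 1, 2 or 3. The other Reelin receptor, Lrp8, was at 3.29 ± 0.526 and 3.63 ± 0.607 RPKM (log2 difference −0.11, adjusted p = 0.752).

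Besides Stat3 and Cav1, the remaining 25 of 27 tested substrates and adaptors did not pass. The most abundant of the list were Gja1, the astrocyte connexin that Src phosphorylates, and Dab1, the Reelin adaptor. Dab1 was at 51.85, 56.55 and 47.64 RPKM in ULAs and at 42.27, 37.03 and 48.76 RPKM in DLAs. The ULA level was the higher one in brains 1 and 2 but not in brain 3, and its log2 difference of 0.28 (SE 0.13) had an adjusted p of 0.303 in limma. Without brain 1, 2 or 3 the adjusted p was 0.837, 0.696 or 0.0267, the last being the only one of 11 alternatives in which Dab1 passed. For Gja1 the log2 difference was 0.27 (SE 0.09, adjusted p = 0.192, limma).

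**Figure D5:**
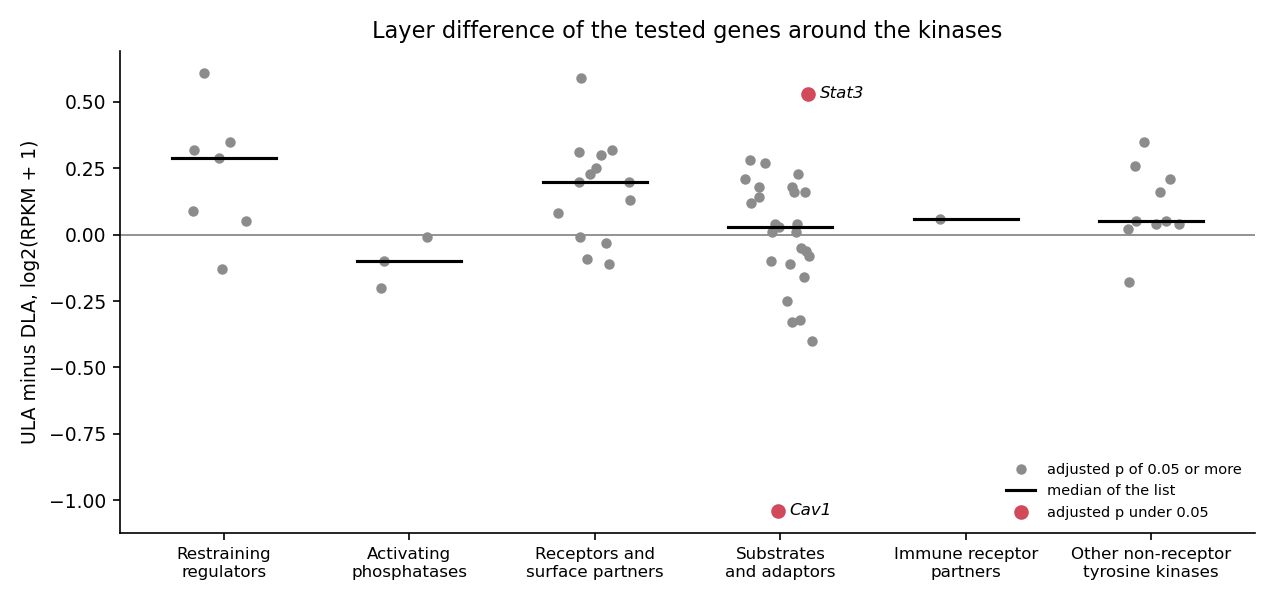
ULA minus DLA difference in log2(RPKM + 1) for the tested genes of 6 lists around the Src-family kinases, with a point for each gene, red where the limma adjusted p is under 0.05, and a bar for the median of each list (Matk and Ptk2 appear in 2 lists each). Stat3 (0.53) and Cav1 (−1.04) are the 2 genes that passed, and the list medians lie between −0.10 and 0.29.

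The other non-receptor tyrosine kinases were compared because they share the kinase fold with the members. Of 23 such genes, 10 were tested, 0 passed, and their log2 differences ran from −0.18 to 0.35 with a median of 0.05. Ptk2, the focal adhesion kinase that binds Src, was at 32.7 ± 4.26 RPKM (SD, n = 3) in ULAs and 29.0 ± 1.60 RPKM in DLAs (log2 difference 0.16, adjusted p = 0.521, limma). Jak1, a kinase of cytokine receptors, was at 27.2 ± 1.06 and 22.6 ± 0.696 RPKM, higher in ULAs in 3 of 3 brains (log2 difference 0.26, adjusted p = 0.262). Syk, Btk and the listed immune receptor partners, taken as genes that work beside Lyn in blood cells, were at low levels or not detected. Syk and Btk were at 0.20 RPKM or less, and of 15 immune receptor partners only Fcer1g, the common Fc receptor chain, reached a mean RPKM of 1, at 1.14 ± 0.121 in ULAs and 1.11 ± 0.605 in DLAs (adjusted p = 0.91, limma). Lat2, an adaptor, came next at 0.65 ± 0.383 and 0.817 ± 0.284 RPKM, and Cd79b, Cd22, Ms4a1 and Cd8a were listed at 0 in all 6 libraries.

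The rows whose profile over the 6 libraries was most like that of Lyn were found by the root mean square difference between profiles of log2(RPKM + 1), each centred on its own mean, among 7914 RefSeq rows whose RPKM averaged 5 or more. They were Art3, 6530418L21Rik, Tspan13, Cdkn2c, Eogt, Msmp, Ptger4 and BC057079, with differences of 0.133, 0.139, 0.172, 0.181, 0.205, 0.206, 0.210 and 0.211, against a median of 0.668 over all rows compared. Art3, an ADP-ribosyltransferase family member, was the closest, at 20.30, 20.22 and 18.56 RPKM in ULAs and 8.56, 9.40 and 7.20 RPKM in DLAs. Art3, Eogt, Msmp and BC057079 had, like Lyn, their highest ULA value in brain 1 and their lowest in brain 3, and the other listed rows did not. Msmp was at 26.58, 20.63 and 18.29 RPKM in ULAs. Its DLA values, 7.73, 12.11 and 11.23 RPKM, were spread more widely than those of Lyn. Pearson's r with Lyn was 0.942 to 0.986 for these 8 rows over 6 libraries, which share 3 brains, and serves as a description only. Both measures carry the layer contrast by which Lyn was chosen, so nothing is read from the distance to the median.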

How the data were processed

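The authors deposited RPKM values for 43383 rows, 1 per symbol, from single reads of 36 bases of SMART-Seq v4 cDNA. The submitters' processing notes name bcl2fastq 1.8.4, CASAVA 1.8.2 and the build mm9. The counting program is not given in the sources used here, and replicates were not pooled. The deposited lengths equal the summed exons (other values per row were not used). Depth, read from the RPKM steps of rows of up to 500 bases, was 24.4 to 26.7 M reads for the ULAs and 19.7 to 29.6 M for the DLAs, where whole reads gave at least 99.8% of these values exactly to the last deposited decimal (66.1% to 79.0% at the next best depth). The values had been cut to 2 decimals, so read numbers are approximate.

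The 13999 rows whose RPKM averaged 1 or more were fitted on log2(RPKM + 1) with limma 3.58.1 in R 4.3.3 (mean-variance trend, brain and layer as terms), with 2-sided p-values and Benjamini-Hochberg adjustment. Fold changes on this scale understate changes of low genes. The replicate number was taken as the brain: all 109 supplementary rows given by brain held identical values, and same-numbered libraries deviated together (r of 0.42, 0.33 and 0.34). Members and gene lists were chosen with earlier results of these data known, and 2 listed genes were found under older symbols. Some listed genes are not reported here and were left out of the lists, their counts and the marker sums. Named genes are the members, listed genes with an adjusted p under 0.05, the 2 most abundant of each list and the 8 rows most like Lyn. Others were singled out after their values were seen. Alternatives were no brain term, a pseudocount of 0.1, all rows above 0, a minimum mean of 5 RPKM, quantile normalization, median centring, a loess length correction (span 0.5), no trend and each brain left out. Python 3.11.15 was used with pandas 2.3.3, numpy 2.4.6 and matplotlib 3.10.9.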

Additional observations from a re-analysis of the deposited data

How the results depend on the processing

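The fitted log2 difference of Lyn stayed between 1.12 and 1.33 over 11 alternatives, and its place in the order of levels was the same by the median (place 2 in ULAs, place 3 in DLAs). Src stayed between 0.18 and 0.38, Yes1 between 0.01 and 0.32 and Fyn between −0.23 and −0.11, and Csk between −0.05 and 0.21, changing sign.

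The counts of called rows moved. Without the replicate block (the brain term, by which the model is paired), 23 rows were higher in ULAs and 18 in DLAs, against 100 and 128 with it, with 1409 rows at an unadjusted p under 0.05 in limma, and 0 and 0 of the genes around the kinases passed. With no filter on low RPKM, 0 and 0 rows passed in limma, with 2799 rows at an unadjusted p under 0.05, and so 0 of the genes around the kinases. After quantile normalization 138 and 103 rows passed. Without the trend, 65 and 79 rows passed, and after the length correction 82 rows were higher in DLAs. Leaving out each brain gave 104 to 426 rows higher in ULAs and 126 to 687 higher in DLAs, with the highest of both without brain 3. Among the genes around the kinases, the number higher in ULAs was 0 with a pseudocount of 0.1, after the length correction and without the trend, 2 (Cblb and Stat3) at a mean RPKM of at least 5, and from 0 to 5 with each brain left out, the highest without brain 3 (Cblb, Dab1, Fgfr2, Stat3 and Vldlr). The number higher in DLAs was 0 at a mean RPKM of at least 5, where Cav1 was not tested, and 1 without each brain. After median centring it was Cblb, not Stat3, that passed. The causes were not tested. Depth limits what can be said of Fgr, with 3 to 9 reads per library, and of Blk.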

Other observations

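Rows without a gene name overlap the span of Fyn and of Yes1 on the opposite strand, and were singled out after their values were seen. ENSMUSG00000086915, which runs from 39278302 to 39333488 on chromosome 10 (mm9) across the end of Fyn without sharing exonic bases, had ULA levels of 22.30, 16.04 and 21.40 RPKM for brains 1, 2 and 3 and DLA levels of 26.98, 19.86 and 25.51 RPKM. Like Fyn it was lowest in brain 2 in both layers and higher in DLAs in 3 of 3 brains. ENSMUSG00000085234, from 32809557 to 32953438 on chromosome 5 across the start of Yes1, was at 10.4 ± 1.23 RPKM (SD, n = 3) in ULAs and 9.03 ± 1.21 RPKM in DLAs. The counting is not stated to use strand, so reads of unspliced Fyn or Yes1 RNA in the exons of these rows cannot be told apart from their own.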
